A study of Mus musculus with 9 samples.

Results

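Of 9 heart samples, 3 carried Nppa at 200000 normalized counts or more and were set against the other 6, which lay below 100000. Nppa encodes atrial natriuretic peptide. The 3 samples were chosen by this measured level and by nothing else, so Nppa is given here as a description and is left out of every test. They are vehicle 1, oxaliplatin 2 and oxaliplatin 4, named by treatment and replicate number. The other 6 are vehicle 2, 3 and 4 and oxaliplatin 1, 3 and 5. All hearts came from C57BL/6 mice and were collected after 8 weeks. The 4 vehicle samples come from control mice, and the 5 oxaliplatin samples from mice that received oxaliplatin, a platinum chemotherapy, at 10 mg/kg. RNA was sequenced, and the deposited table gives a normalized count per gene. It sums to 29409543 to 36949836 normalized counts per sample. The labels name the tissue as heart, without saying which chambers were taken.

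Atria and ventricles are built from different muscle cells. Atrial myocytes store natriuretic peptides in secretory granules, contract with their own myosin light chains, and restrain the calcium pump of the sarcoplasmic reticulum with sarcolipin, where ventricular myocytes use phospholamban. The mouse atrial wall also holds endocardial, epicardial, conduction and nerve cells in its own proportions. In RNA of whole tissue, fewer cells of a type and less RNA per cell cannot be told apart.

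Nppa was 251480 in vehicle 1, 546810 in oxaliplatin 2 and 608521 in oxaliplatin 4. In the other samples it was 14524, 10826 and 17998 in vehicle 2, 3 and 4, and 35514, 81694 and 20847 in oxaliplatin 1, 3 and 5. Vehicle 1 is the member just inside the threshold and oxaliplatin 3 the sample just outside it.

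The label given to this division, atrial-rich against atrial-poor, was checked on the other 3 atrial markers, Myl7, Myl4 and Sln. Myl7, the atrial regulatory light chain, was 66872 in vehicle 1, 167317 in oxaliplatin 2 and 90271 in oxaliplatin 4. It was 5821, 637 and 13152 in vehicle 2, 3 and 4, and 70.5, 19169 and 3005 in oxaliplatin 1, 3 and 5. Myl4, the atrial essential light chain, was 22577, 50355 and 30029 in the 3 samples of high Nppa, and between 76.5 and 7184 (median 1525) in the other 6. Sln, which encodes sarcolipin, was 38192, 66251 and 46998 in those 3, and between 13.1 and 8205 (median 1775) in the rest. For all 3 markers the samples of high Nppa lay above every other sample, in vehicle and in oxaliplatin alike. The other 6 did not form a uniform low group. Oxaliplatin 3 and vehicle 4 lay highest among them, and oxaliplatin 1 held nearly none of the 3 markers.

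**Figure D1:**
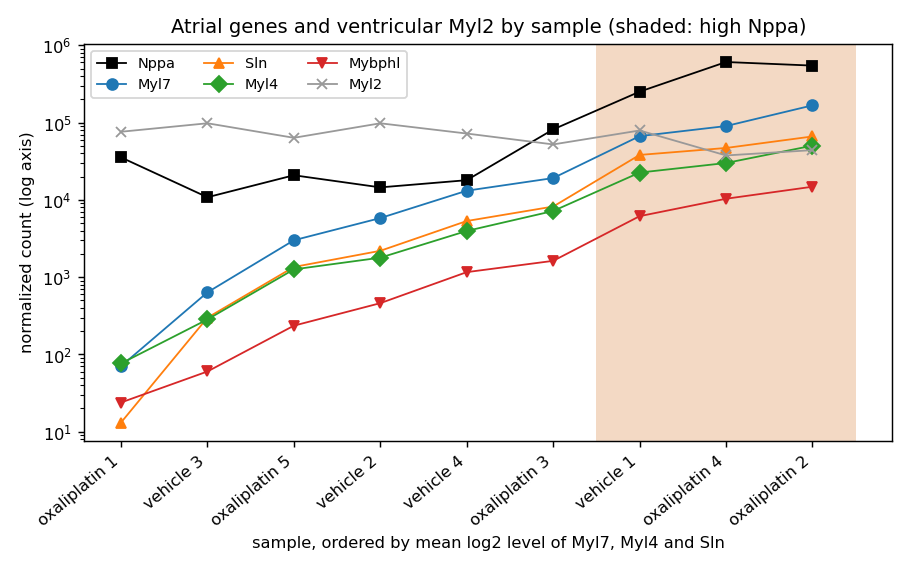
Normalized counts of 5 atrial genes and of the ventricular light chain Myl2 on a log axis, 1 point per gene and sample, with samples ordered by the mean log2 level of Myl7, Myl4 and Sln and the 3 samples of high Nppa shaded. Myl7, Myl4, Sln and Mybphl climb together from oxaliplatin 1 to oxaliplatin 2, while Nppa in oxaliplatin 1 (35514) is higher than in the 4 samples that follow it, and Myl2 stays between 37606 and 98089.

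The mean of log2(normalized count + 1) over Myl7, Myl4 and Sln, called the marker level below, put a number on this order. It was 5.42 in oxaliplatin 1, 8.57 in vehicle 3, 10.8 in oxaliplatin 5, 11.5 in vehicle 2, 12.7 in vehicle 4 and 13.3 in oxaliplatin 3. In the samples of high Nppa it was 15.2 in vehicle 1, 15.6 in oxaliplatin 4 and 16.3 in oxaliplatin 2. Nppa and the marker level parted in oxaliplatin 1, where the ratio of the Nppa count to the Myl7 count, neither per length, was 504, against 1.37 to 17 in the other 8 samples. It was lowest in vehicle 4, with Myl7 at 13152 and Nppa at 17998.

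Promoters of 5 atrial genes are shown because their counts separate the 3 samples from the rest. They are the 150 bases before the start site, 5′ to 3′ on the gene's strand, from RefSeq on GRCm38.p6. Of 6 atrial genes looked up, 5 matched. Capitals mark matches on either strand to GATAA, the core bound by GATA factors, GGTGTGA, a T-box element, TNAAGTG, an Nkx2-5 element, or the CArG box, bound by serum response factor. The windows are chr4:148000572-148000721 on the plus strand for Nppa, chr11:5898783-5898932 on the minus strand for Myl7, chr11:104550513-104550662 on the plus strand for Myl4, chr3:108364761-108364910 on the plus strand for Mybphl and chr6:87428844-87428993 on the plus strand for Bmp10.
Nppa: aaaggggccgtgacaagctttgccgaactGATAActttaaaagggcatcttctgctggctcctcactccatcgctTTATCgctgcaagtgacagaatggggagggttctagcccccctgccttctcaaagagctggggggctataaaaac
Myl7: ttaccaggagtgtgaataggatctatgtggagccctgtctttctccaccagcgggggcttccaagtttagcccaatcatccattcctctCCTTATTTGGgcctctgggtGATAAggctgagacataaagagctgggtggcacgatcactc
Myl4: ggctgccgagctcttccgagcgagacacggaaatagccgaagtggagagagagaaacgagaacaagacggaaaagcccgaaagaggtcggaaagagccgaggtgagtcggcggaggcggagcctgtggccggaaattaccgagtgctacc
Mybphl: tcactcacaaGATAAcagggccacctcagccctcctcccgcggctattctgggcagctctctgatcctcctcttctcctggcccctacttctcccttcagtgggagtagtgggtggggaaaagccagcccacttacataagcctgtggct
Bmp10: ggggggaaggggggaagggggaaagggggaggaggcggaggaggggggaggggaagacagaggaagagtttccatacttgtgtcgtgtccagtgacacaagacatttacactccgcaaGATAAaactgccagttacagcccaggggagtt

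GATAA was found 121 and 75 bases before the start of Nppa, 41 bases before Myl7, 140 before Mybphl and 32 before Bmp10. It is held by 13.3% of the 32851 windows of this length in the RefSeq table. Myl7 also held a CArG box 61 bases before its start, a motif in 0.916% of windows. GGTGTGA (1.92% of windows) and TNAAGTG (5.86%) were found in none of the 5, and the Myl4 window held none of the 4 motifs. No matches overlapped one another. A match describes the letters of the window and is not a measured site.

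Across all genes, the samples of high Nppa differed from the rest mainly by genes that were higher. With treatment as a covariate, limma passed 61 of 13787 genes at an adjusted p under 0.05. Of these 59 were higher (0.428% of genes tested) and 2 were lower (0.0145%), and 1263 had an unadjusted p under 0.05. The 59 include Gm13054, which overlaps Nppa and is described below. The 3 samples lay above all other 6 for 299 genes (2.17%) and below them for 94 (0.682%). Without vehicle 1 the count that passed was 27, without oxaliplatin 2 it was 20, without oxaliplatin 4 it was 25, and without oxaliplatin 3 it was 104. All 61 kept their sign in each of these fits, and 13 passed whichever single sample was left out: Tbx5, Gja5, Sbk2, Sds, Gpx3, Mt3, Prkag2, Lad1, Aif1l, Csrp2, Igfbp6, Ctla2a and Aldh1b1.

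Some other genes of atrial myocytes were higher in the samples of high Nppa. Of 22 listed and measured, 5 passed as higher and none as lower, 11 lay above all other samples, and the median log2 difference was 1.35, against -0.01 over all genes. Over all genes 0.428% passed as higher and 2.17% lay above all other samples. The 5 were Tbx5, Sbk2, Gja5, Pam and Kcnj3. The number that passed was 3 without vehicle 3, without oxaliplatin 4 or without oxaliplatin 5, and 7 without oxaliplatin 3.

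Tbx5, a T-box factor needed for atrial identity and rhythm, was 2291 in vehicle 1, 3346 in oxaliplatin 2 and 3301 in oxaliplatin 4. In the other 6 samples it was 1021 to 1555 (median 1103), so the samples did not overlap. The difference was 1.28 on the log2 scale (SE 0.13, adjusted p = 0.000638), and it passed without any 1 sample. Sbk2, a kinase gene of atrial muscle, was 2622, 3689 and 1954 against 342 to 810 (median 577), a log2 difference of 2.34 (SE 0.25, adjusted p = 0.00221). Gja5, the connexin of atrial and conduction cells, was 1277, 1702 and 1033 against 259 to 646 (median 383), a log2 difference of 1.61 (SE 0.21, adjusted p = 0.00511). Both lay above every other sample. Gja1, a connexin of working heart muscle, was 21873, 16270 and 10859 against 11675 to 21529, with a difference of 0.10 (SE 0.16) that did not pass.

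Pam makes the amidating enzyme of peptide hormones and is a main membrane protein of atrial granules. It was 7373 in vehicle 1, 19921 in oxaliplatin 2 and 11809 in oxaliplatin 4, against 2964 to 5669 (median 3503) elsewhere. The log2 difference was 1.60 (SE 0.25, adjusted p = 0.0202), and the call was lost without vehicle 3, oxaliplatin 4 or oxaliplatin 5 (adjusted p up to 0.0683). Kcnj3 encodes a subunit of the acetylcholine-gated potassium channel. It was 2038, 2954 and 1663 against 527 to 1164 (median 868), a log2 difference of 1.49 (SE 0.25, adjusted p = 0.0295), and it lost its call in 7 of the 9 fits without a sample (adjusted p up to 0.0852). Kcnj5, the partner subunit, was 2204, 2644 and 1160 against 644 to 1669, and did not pass (0.88, SE 0.28).

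Some of the steepest atrial genes did not pass, and these varied widely among the 6 other samples. Mybphl, a myosin-binding protein of atrial muscle, was 6161, 14812 and 10353 against 23.9 to 1628 (median 349), with an adjusted p of 0.364. Dkk3 was 9242, 16112 and 20599 against 195 to 4368, and Fgf12, which modulates sodium channels, was 659, 2117 and 1246 against 3.58 to 267. The high and lower samples did not overlap for these 3 genes. Sbk3, the neighbour of Sbk2 on the chromosome and not a listed gene, was 2335, 2743 and 1179 against 21.5 to 366 (adjusted p = 0.131).

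A gene that marks one side of the heart split the samples in another way. Bmp10, in the adult mouse a right atrial gene, was 1497 in vehicle 1, 1835 in oxaliplatin 2 and 1652 in oxaliplatin 4. It was also 784 in oxaliplatin 3, and it was 18.3 in vehicle 3, 0.897 in oxaliplatin 5 and listed at 0 in vehicle 2, vehicle 4 and oxaliplatin 1. Vehicle 4 thus had Myl7 at 13152 with Bmp10 at 0, and oxaliplatin 3 had Myl7 at 19169 with Bmp10 at 784. Bmp10 did not pass (adjusted p = 0.371), but it did without oxaliplatin 3 (adjusted p = 0.00174) and in no other fit without a sample. Mlana, a melanocyte gene, had the same 4 highest samples as Bmp10, with 540, 1163 and 2113 in vehicle 1, oxaliplatin 2 and oxaliplatin 4, 293 in oxaliplatin 3 and 3.23 to 32.3 elsewhere (adjusted p = 0.127, and 0.00439 without oxaliplatin 3).

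**Figure D2:**
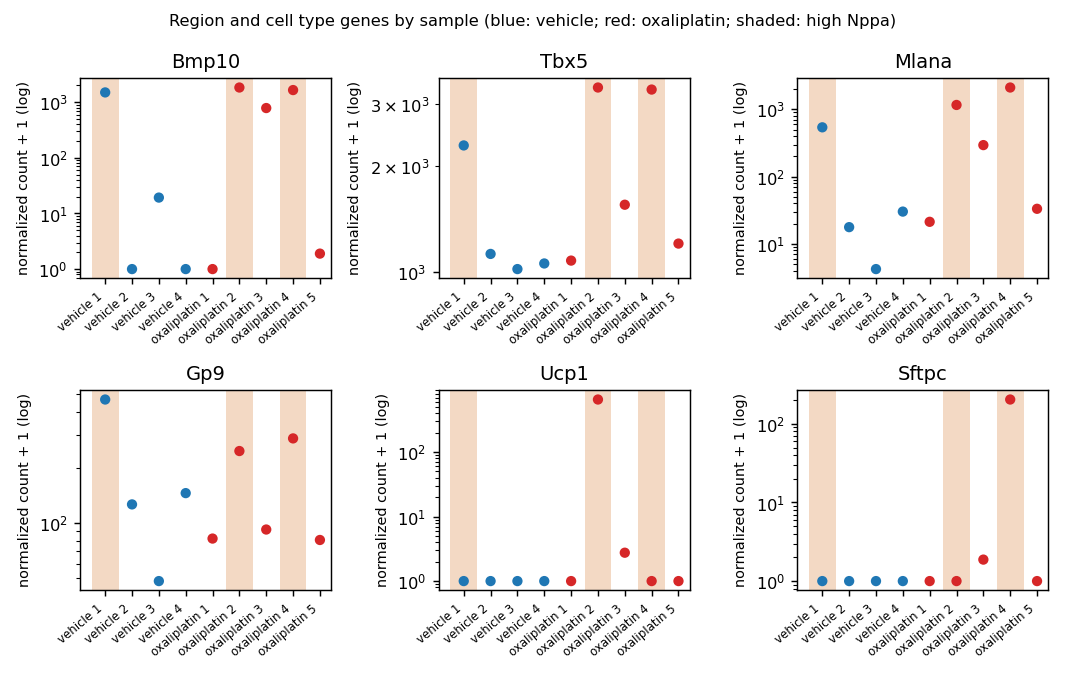
Normalized count + 1 on a log axis for 6 genes in each of the 9 samples, 1 point per sample, with blue for vehicle, red for oxaliplatin and shading for high Nppa. Bmp10 and Mlana are high in vehicle 1 and oxaliplatin 2, 3 and 4, Tbx5 and Gp9 in the 3 shaded samples, Ucp1 in oxaliplatin 2 alone (651) and Sftpc in oxaliplatin 4 alone (203).

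Of 9 measured genes of secretory granules and natriuretic peptide processing, Nppa aside, 1 passed, Npr3, which encodes the clearance receptor. Over all genes tested 0.428% passed as higher. Npr3 is also a member of the endocardial list below, so the same call is counted in both. Npr3 was 246, 510 and 327 against 72.8 to 136 (median 101), a log2 difference of 1.70 (SE 0.25, adjusted p = 0.00997, and 0.0602 without oxaliplatin 2). Nppb, the brain natriuretic peptide gene, was 6335 in vehicle 1, 16640 in oxaliplatin 2 and 16109 in oxaliplatin 4. It was highest of all, at 28961, in oxaliplatin 1, which held almost no Myl7, and 4297 to 8569 in the other 5 (log2 difference 0.33, SE 0.42, adjusted p = 0.86). Corin, the protease that cuts the Nppa precursor, was 2859, 3609 and 3127 against 2451 to 3358, and the receptors Npr1 and Npr2 also overlapped. Gm13054, annotated as antisense to Nppa in GENCODE M21 on GRCm38, had a log2 difference of 3.93 (SE 0.44). Its span on chromosome 4, 148001091 to 148004014, overlaps Nppa at 148000722 to 148002079, and without a known strand setting the reads of both cannot be told apart. Gm13054 is counted among the genes that passed as higher, but its count may be that of the gene that chose the samples. Its call is therefore no separate finding.

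The ventricular genes were present in every sample. Of 13 ventricular myocyte genes, none passed in either direction, 11 had a negative difference, 6 reached an unadjusted p under 0.05, and their median log2 difference was -0.26. Over all 13787 genes tested, 6619 had a positive difference and 1263 an unadjusted p under 0.05. Myl2, the ventricular regulatory light chain, was 79145 in vehicle 1, 44058 in oxaliplatin 2 and 37606 in oxaliplatin 4, against 52228 to 98089 (median 74203) in the others. Within oxaliplatin, samples 2 and 4 held the lowest values, while vehicle 1 lay inside the vehicle range. Myl3 was 207878, 123952 and 130825 against 145670 to 284954, and Kcnip2 was 1942, 1247 and 758 against 1395 to 2508. The log2 differences were -0.45 (SE 0.18), -0.49 (SE 0.22) and -0.51 (SE 0.15), with adjusted p of 0.434, 0.537 and 0.249. Irx4 and Hey2, ventricular transcription factors, and Pln, which encodes phospholamban, also overlapped between the sample sets. Myh6 and Myh7, the cardiac myosin heavy chains, differed by -0.13 (SE 0.18) and 0.08 (SE 0.28). Of 21 genes common to both kinds of myocyte none passed, with a median of -0.19.

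Of 11 pacemaker and conduction genes 0 passed, with a median log2 difference of 0.48. At an unadjusted p under 0.05 there were 5 of them, against 1263 of all 13787 genes. Hcn4, the pacemaker channel of the sinus node, was 49, 55.5 and 48.8 against 25.1 to 136, and Tbx3, a factor of the conduction system, was 347, 344 and 400 against 366 to 563. Ryr3, a calcium release channel, came nearest, at 69.2, 83.1 and 50.7 against 12.5 to 43.4 (log2 difference 1.60, SE 0.37, adjusted p = 0.0947). Of 22 potassium channels only Kcnj3 passed, and Kcna5, another channel known for atrial current, overlapped, at 218, 181 and 480 against 174 to 787. None of 19 sodium and calcium channels and exchangers passed.

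Some genes of the inner and outer lining of the heart also passed as higher. Of 9 endocardial genes 4 passed (Tmem108, Npr3, Plvap and Cdh11), with a median log2 difference of 1.19. Over all genes tested 0.428% passed as higher. The summed level of the list was 3505 in vehicle 1, 6269 in oxaliplatin 2 and 7432 in oxaliplatin 4, against 2251 to 4396. Tmem108 was 292, 313 and 252 against 96.8 to 130 (log2 difference 1.33, SE 0.18, adjusted p = 0.00459). Plvap, a protein of endothelial diaphragms, was 169, 201 and 223 against 68.1 to 94.8 (1.19, SE 0.19, adjusted p = 0.0132). Cdh11, a cadherin, was 143, 202 and 152 against 43 to 78.7 (1.45, SE 0.26, adjusted p = 0.0224). All 3 lay above every other sample. Nfatc1, a factor of the endocardium, was 341, 417 and 472 against 350 to 520 and showed no such difference. Of these 4, Npr3 alone passed without vehicle 1, Tmem108 alone without oxaliplatin 2, and both of them, without Plvap and Cdh11, without oxaliplatin 4. Cdh11 also lost its call without oxaliplatin 5.

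Of 17 epicardial and mesothelial genes 3 passed, Krt7, Upk3b and Msln, with a median of 1.86, where 0.428% of all genes passed as higher. Krt7, a keratin, was 110 in vehicle 1, 321 in oxaliplatin 2 and 166 in oxaliplatin 4, against 5.38 to 62.2 (median 11) in the others (log2 difference 3.13, SE 0.48, adjusted p = 0.0109). Msln, which encodes mesothelin, was 207 in vehicle 1 and 25.2 to 70.4 in the other vehicle samples, and 1647 and 1683 in oxaliplatin 2 and 4 and 384 to 657 in the other oxaliplatin samples. It differed by 1.92 (SE 0.28, adjusted p = 0.0109) between the sample sets, and by 3.32 between oxaliplatin and vehicle at equal Nppa level (adjusted p = 0.000176). Upk3b, an uroplakin of mesothelium, was 381, 1576 and 860 against 44.4 to 408 (2.06, SE 0.33, adjusted p = 0.0223). Wt1, a factor of epicardial cells, was 98, 202 and 511 against 77.7 to 686 (-0.51, SE 0.32) and did not pass. Without vehicle 1 none of the 17 passed, with a median of 1.74.

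**Figure D3:**
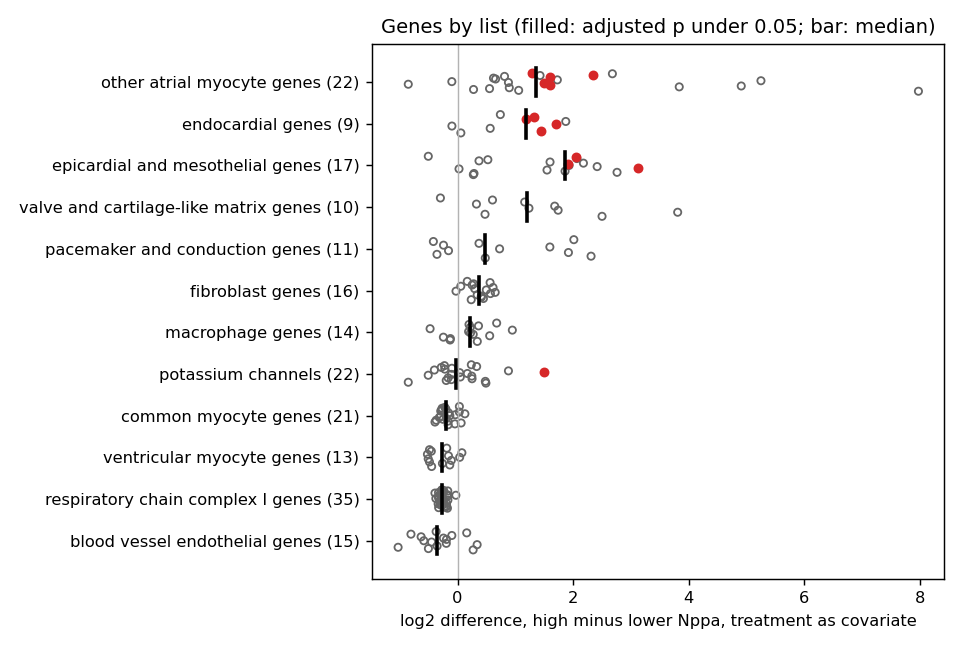
Log2 difference between the 3 samples of high Nppa and the other 6, with treatment as a covariate, for each measured gene of 12 lists (number measured in brackets), filled where the adjusted p was under 0.05, with a bar at the list's median. The atrial, endocardial and epicardial lists have medians of 1.35, 1.19 and 1.86, and the ventricular, common myocyte, complex I and blood vessel lists lie below 0 with no gene passed.

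Valve and cartilage-like matrix genes had a median log2 difference of 1.20, but none of 10 passed by Nppa level. Cytl1, a secreted cytokine-like protein, was 1300, 1833 and 1092 against 375 to 1271, and Cilp2, a matrix protein of cartilage, was 64.5, 129 and 56.9 against 0 to 69.6, with the top of that range in vehicle 4. Genes of load and stress did not pass either (0 of 15). Lgals3, which encodes galectin-3, was 652, 1764 and 3181 against 95.7 to 1075, and Gdf15, a stress cytokine, was 4.78, 29.9 and 43.1 against 22.3 to 78.9.

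Some markers of other cells and tissues stood highest in a single sample, and others did not. The summed level of 10 adipocyte genes was 20290 in oxaliplatin 2, 7724 in oxaliplatin 4 and 3564 to 5439 in the other 7 samples. Ucp1, the uncoupling protein of brown fat, was 651 in oxaliplatin 2, 1.75 in oxaliplatin 3 and listed at 0 in the others. Adipoq, which encodes adiponectin, was 540 in oxaliplatin 2 and 3.58 to 96.7 elsewhere. Sftpc, a surfactant gene of the lung and the only 1 of 8 lung and airway genes measured, was 203 in oxaliplatin 4 and at most 0.876 in the others. Atp2a1, the calcium pump of fast skeletal muscle, passed, at 58.8, 83.4 and 81 against 3.58 to 14 (log2 difference 2.86, SE 0.48, adjusted p = 0.0163, and 0.131 at most without a sample), while the other 3 measured skeletal muscle genes did not. The part of these tissues in the differences above was not tested.

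Genes of blood vessels, red cells and dividing cells did not pass by Nppa level. Of 15 blood vessel endothelial genes none passed, 12 had a negative difference, and the median was -0.35. Before adjustment, however, 9 of the 15 fell below 0.05 in limma, compared with 1263 of all 13787 genes. The difference was positive for 6619 of those 13787. The list was therefore not shown to be unchanged. Cldn5, a tight junction gene, was 264, 743 and 1191 against 653 to 1957, and Fabp4 was 14838, 20236 and 28002 against 14639 to 49631. The 10 erythroid genes measured crossed the division, with summed levels of 577100, 11590 and 46360 in vehicle 1, oxaliplatin 2 and oxaliplatin 4 and 33660 to 551900 in the others. None of these, or of 20 cell division, 14 macrophage, 7 MHC class II or 16 fibroblast genes passed. In the energy lists 0 of 24 fatty acid oxidation, 0 of 35 complex I and 0 of 21 glycolysis genes passed, with medians of -0.19, -0.26 and -0.26.

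The 10 largest rises that passed without overlap within either treatment, predicted gene models such as Gm13054 aside, were in Uts2b, Sds, Cntf, Cst9, Rab3b, Sytl2, Krt7, Atp2a1, Opcml and Adcy1. Uts2b, which encodes a urotensin peptide, was 608 in oxaliplatin 2, 345 in oxaliplatin 4, 43.8 in oxaliplatin 3 and 20.3 in vehicle 1, and listed at 0 in the other 5 (adjusted p = 0.0396, and 0.304 at most without a sample). It met the filter on the mean only through the samples of high Nppa, so it could come out only as higher, and its call carries little weight. Sds, serine dehydratase, was 222, 307 and 411 against 4.33 to 28.9 (median 12.2). Its log2 difference was 4.51 (SE 0.51, adjusted p = 0.00107, and at most 0.0134 without any sample). Cntf, a neurotrophic cytokine, was 183, 88.1 and 248 against 3.38 to 44.7 (3.74, SE 0.64, adjusted p = 0.02, and up to 0.155 without a sample).

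Rab3b and Sytl2 encode parts of the machinery that brings secretory vesicles to the membrane. Rab3b was 304, 598 and 284 against 20.4 to 81.5 (log2 difference 3.38, SE 0.49, adjusted p = 0.0132). Sytl2 was 223, 259 and 251 against 10.8 to 71.8 (3.33, SE 0.55, adjusted p = 0.0224). Both lay above every other sample. Rab3b lost the call without vehicle 1 or oxaliplatin 2 (adjusted p up to 0.0819), and Sytl2 in 6 of the 9 fits that left out a sample (up to 0.1). Cst9, Opcml and Adcy1 had log2 differences of 3.63, 2.62 and 2.57, and also lay above all other samples. The adjusted p was 0.0455 for Cst9, 0.0224 for Opcml and 0.0122 for Adcy1, and it reached 0.305, 0.195 and 0.0986 with a sample left out.

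Only 2 genes passed as lower. Gpr160, an orphan receptor gene, was 58.6 in vehicle 1 against 92.7 to 142 in the other vehicle samples, and 101 and 171 in oxaliplatin 2 and 4 against 275 to 378 in the other oxaliplatin samples. Its log2 difference was -1.17 (SE 0.22, adjusted p = 0.0356). Ogdhl, a relative of the oxoglutarate dehydrogenase subunit, was 1561, 1303 and 1228 against 1856 to 2695 (-0.64, SE 0.12, adjusted p = 0.0239). Gpr160 lost its call in 7 of the 9 fits without a sample and Ogdhl in 6 of them, in both cases without each of the 3 samples of high Nppa and without vehicle 3, oxaliplatin 1 or oxaliplatin 5 (adjusted p up to 0.197 and 0.13). Neither passed after rescaling without mitochondrial and marker genes, where no gene was lower and the median difference of all genes was 0.108 in place of -0.01.

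The 2 treatment arms share no samples, and each gives its own difference. Across 13787 genes, which are not independent replicates, the difference within vehicle (1 sample against 3) and within oxaliplatin (2 against 3) correlated with r = 0.367 and rho = 0.163, and 7592 genes had the same sign. In the oxaliplatin samples alone limma passed 10 genes, all higher: Sds, Mt3, Gpx3, Prkag2, Aif1l, Lad1, Msln, Smoc1, Tbx5 and Aldh3a1. All 10 were also higher in vehicle 1 than in the mean of the other vehicle samples, with log2 differences from 0.88 for Aldh3a1 to 4.06 for Sds. Tbx5 differed by 1.10 within vehicle and by 1.39 within oxaliplatin, and Sbk2 by 1.95 and 2.58. With vehicle samples alone 26 genes passed, 6 higher and 20 lower, where the single sample of high Nppa is assumed to vary as the other 3 do.

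**Figure D4:**
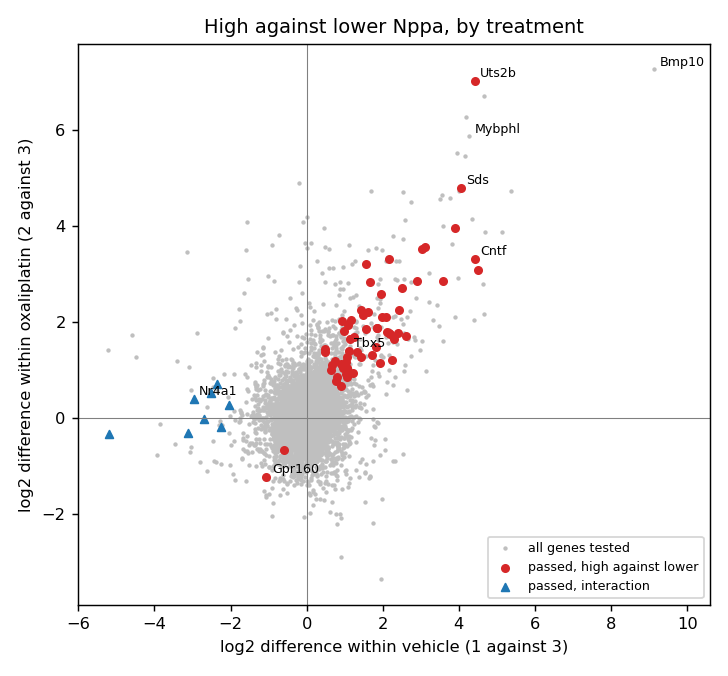
Log2 difference between samples of high and lower Nppa within vehicle (x axis, 1 against 3 samples) and within oxaliplatin (y axis, 2 against 3) for 13787 genes in grey, the 61 genes that passed in the joint fit in red and the 8 that passed the interaction in blue. Red genes lie in the upper right, with Gpr160 and Ogdhl in the lower left, and blue genes lie far to the left near a difference of 0 within oxaliplatin.

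The difference by Nppa level depended on treatment for 8 genes in limma (0.058% of genes tested), among them Apold1, Ccn1, Ier2, Nr4a1, Rasd1, Zfp36 and the gene model Gm6644. Several of these are genes of the fast transcriptional response to stimulation. Each of those named was lowest in vehicle 1 of all 9 samples. Nr4a1, an orphan nuclear receptor, was 443 in vehicle 1 and 2976 to 3933 in the other vehicle samples, and 2735 and 1332 in oxaliplatin 2 and 4 against 1294 to 1661 in the other oxaliplatin samples. Ier2, an immediate early gene, was 213 in vehicle 1 and 1346 to 1441 in the other vehicle samples, against 480 to 698 in all 5 oxaliplatin samples. The interaction rests on vehicle 1 as the single vehicle sample of high Nppa and cannot be fitted without it. Without vehicle 4 no gene passed it, and after rescaling without mitochondrial and marker genes none did (304 genes at an unadjusted p under 0.05).

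Because the markers formed a gradient, the marker level was also used as a number in place of the 2 sample sets, a fit chosen after the data were seen. It passed 461 genes with a positive slope (3.34% of genes tested) and 418 with a negative slope (3.03%), of which 38 were among the 61 above. Without oxaliplatin 1, the sample of lowest marker level, 89 positive and 2 negative slopes passed, 78 and 1 of them shared with the fit of all samples, and all 879 kept their sign. Rescaling without mitochondrial and marker genes moved the split to 1495 positive and 90 negative, and quantile normalization to 172 and 53. A slope is the log2 change of a gene per unit of marker level.

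Mybphl had the steepest slope among the named genes that passed, 0.90 (SE 0.045, adjusted p = 2.41e-05). Its counts ran in the order of the markers, from 23.9 in oxaliplatin 1, through 60.2, 236, 461, 1163 and 1628 in vehicle 3, oxaliplatin 5, vehicle 2, vehicle 4 and oxaliplatin 3, to 6161, 10353 and 14812 in vehicle 1, oxaliplatin 4 and oxaliplatin 2. Fgf12 had a slope of 0.80 (SE 0.053), Tmem163 of 0.80 (SE 0.073), Hamp of 0.75 (SE 0.061) and Rxfp1 of 0.72 (SE 0.054). Tmem163 encodes a zinc transporter, Hamp the iron hormone hepcidin and Rxfp1 the relaxin receptor. Cacna1h, a T-type calcium channel, had a slope of 0.32 (SE 0.038, adjusted p = 0.000996). These 6 passed without any 1 sample. Of the 22 other atrial genes 14 had a positive slope that passed (7 without oxaliplatin 1), with a median of 0.18. Without the 3 samples of high Nppa 3 of the 22 passed, with a median of 0.107. Of 10 valve and cartilage-like matrix genes, none of which passed by Nppa level, 5 had a positive slope that passed (2 without oxaliplatin 1), with a median of 0.19. Cilp2 had a slope of 0.65 (SE 0.097, adjusted p = 0.00401, and 0.0167 at most without a sample). Of 10 adipocyte genes, none of which passed by Nppa level, 4 had a positive slope that passed, with a median of 0.34. Adipoq had a slope of 0.45 in limma (adjusted p = 0.0162, and 0.354 without oxaliplatin 1, the only sample whose removal lost the call). Of 15 load and stress genes 1 had a positive slope that passed, with a median of 0.00874. It was Lgals3, with a slope of 0.32 in limma (adjusted p = 0.00708, and 0.0229 at most without a sample).

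On the negative side Rbp7, a retinol-binding protein gene of blood vessels, had a slope of -0.18 (SE 0.020, adjusted p = 0.00036, and 0.00631 at most without a sample). It was 3502 in oxaliplatin 1, 2141 in oxaliplatin 5 and 1672 in oxaliplatin 3, 735 and 1194 in oxaliplatin 2 and 4, and 325 in vehicle 1 against 435 to 777 in the other vehicle samples. Of 13 ventricular genes Myl2, Myl3 and Fhl2 passed with slopes of -0.08 (SE 0.016), -0.10 (SE 0.018) and -0.07 (SE 0.014). None of the 3 passed without oxaliplatin 1. Of 35 complex I genes 27 passed as negative, with a median slope of -0.06, but 0 did so without oxaliplatin 1, 0 after quantile normalization and 8 after rescaling without mitochondrial and marker genes.

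The second principal component of all genes, computed without Nppa and the 3 markers, held 25.2% of the variance and put the samples in nearly the same order as the marker level. It ran from -54.1 in oxaliplatin 1 to 40.7 in oxaliplatin 2, with vehicle 1 at 20.1 and oxaliplatin 4 at 26. The first component held 40.6% and separated oxaliplatin samples (12.8 to 48) from vehicle samples (-48.2 to -29.9).

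**Figure D5:**
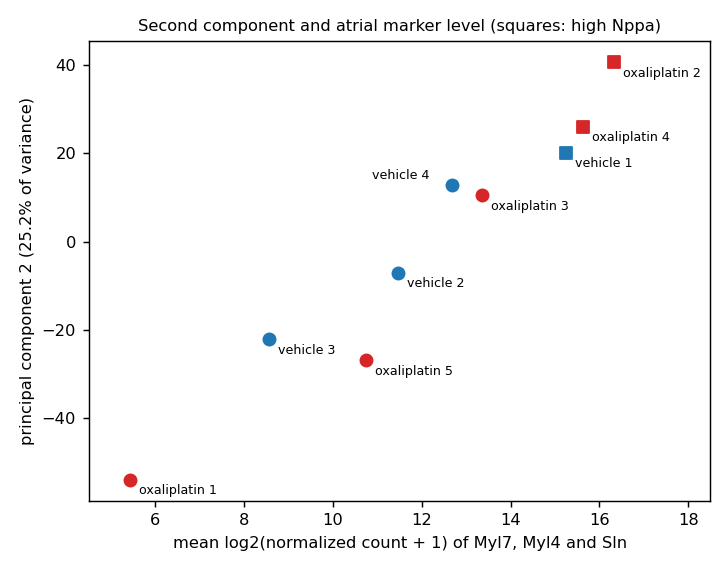
Second principal component of log2(normalized count + 1), computed without Nppa, Myl7, Myl4 and Sln, against the mean log2 level of those 3 markers, 1 point per sample, squares for high Nppa, blue for vehicle and red for oxaliplatin. Samples climb from oxaliplatin 1 (5.42, -54.1) to oxaliplatin 2 (16.3, 40.7), and only vehicle 3 with oxaliplatin 5 and vehicle 4 with oxaliplatin 3 change places between the axes.

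Oxaliplatin against vehicle was the comparison the study was made for. At equal Nppa level 2127 genes passed for treatment (15.4% of genes tested), 1388 higher and 739 lower in oxaliplatin (1545 and 348 after rescaling without mitochondrial and marker genes), and without the level term 1966 passed, of which 1882 were the same genes. Of the 61 genes that passed by Nppa level, 24 also passed for treatment, among them Msln, Upk3b, Gja5, Krt7 and Gpr160. Gja5 was 0.78 higher in oxaliplatin on the log2 scale (adjusted p = 0.0219), and Krt7 1.58 higher (adjusted p = 0.032). Without the 3 samples of high Nppa 1596 genes passed for treatment.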

How the data were processed

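RNA sequencing of heart tissue was analysed for 4 vehicle and 5 oxaliplatin samples. Groups were taken from the labels, which do not say how samples relate, so p-values cover only the spread among these samples, possibly a technical one. For 13795 gene symbols the authors deposited a signal, called normalized counts per the file headers. The submitters' processing notes list STAR 2.5.1a, Partek and DESeq2, with no role stated. Genome build, annotation and strandedness were not given in the sources used here. Read depth per sample is unknown, and the table's totals limit precision only loosely.

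Samples with Nppa of at least 200000 were compared with those under 100000 in limma 3.58.1 (R 4.3.3, trend and robust), on log2(normalized count + 1), with treatment as a covariate. Genes with a mean of at least 10 were tested, without Nppa, with Benjamini-Hochberg adjustment, two-sided, at 0.05. The mean was over all samples, so a gene near 0 in the lower samples can enter only through the high ones, and then only as higher. Fold changes on this scale understate those of low genes. Named genes were the 10 largest rises and falls that passed without overlap within either treatment, up to 4 passing members of each list (2 if no member passed), and a fixed set of chamber genes. Some genes of this rule are not reported here, and Sbk3, Mlana, the genes with the steepest slopes and those of the interaction were chosen after their values were seen. The members and the 37 lists were chosen with earlier results of these data known. Alternatives were pseudocount, filter, scaling, limma settings, threshold, replicate number as a block, subsets of samples and leaving out each sample; the marker level as a number was added after seeing the data. Steps were tested on simulated data. Of genes tested, 13581 had a symbol in GENCODE M21 (GRCm38).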

Additional observations from a re-analysis of the deposited data

Results flagged for a closer look

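For 94 genes examined in each treatment group, 22 of 188 sets of values held a sample far from the rest of its group on the log2 scale. Chance gives about 1 in 20 for genes not chosen by their values, but many of these genes were chosen for differing by Nppa level or in the interaction, so that rate is no comparison here. Vehicle 1, the only vehicle sample of high Nppa, accounts for 16 of the 22. It was highest of the vehicle samples for Ctla2a (2147), Gja5 (1277), Opcml (61), Pf4 (1927), Prkag2 (1007), Tbx5 (2291) and Uts2b (20.3). It was lowest for Apold1 (163), Ccn1 (976), Egr1 (141), Fos (31.1), Gm6644 (1.34), Ier2 (213), Nr4a1 (443), Rasd1 (93.2) and Zfp36 (1088). Among oxaliplatin samples, oxaliplatin 2 stood apart for Ucp1 (651), oxaliplatin 4 for Sftpc (203) and as lowest for Apold1 (686), and oxaliplatin 1 as lowest for Hcn4 (25.1). Vehicle 4 was lowest of the vehicle samples for Nppb (4297) and highest for Npr2 (803).

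For 8 genes, of which 7 are given here, the difference by Nppa level itself differed between treatments in limma. The interaction, oxaliplatin minus vehicle on the log2 scale, was 2.81 for Apold1 (adjusted p = 0.00999), 3.07 for Ccn1 (0.00953), 4.86 for Gm6644 (0.0361) and 2.67 for Ier2 (0.00953). It was 3.37 for Nr4a1 (0.0103), 2.05 for Rasd1 (0.0361) and 3.04 for Zfp36 (0.0449).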

How the results depend on the processing

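The 61 genes that passed by Nppa level became 33 in limma without trend and robust moderation, 190 with array weights, 18 at an adjusted p under 0.01, 119 with log2 Nppa as a number, 9 without the treatment covariate, 10 in oxaliplatin samples alone, 26 in vehicle samples alone and 879 with the marker level as a number. They ran from 20 to 104 with each sample left out. Interaction genes, 8 in all, were 5 with a pseudocount of 10, 5 at a mean of at least 100, 5 after quantile normalization, 0 after rescaling (304 at an unadjusted p under 0.05), 0 without trend and robust moderation (524), 19 with array weights, 3 at 0.01 and 0 to 12 with each sample left out. Treatment genes, 2127 in all, were 3954 with array weights, 906 at 0.01 and 1318 to 2464 with each sample left out. Slopes on the marker level, 879 in all, were 225 after quantile normalization, 1585 after rescaling, 374 without trend and robust moderation, 102 at 0.01, 88 without the treatment covariate, 280 in oxaliplatin samples alone, 8 in vehicle samples alone, 118 without the 3 samples of high Nppa and 91 to 1282 with each sample left out. Some of these fits held fewer samples, and the cause of the changes was not tested.

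With the replicate number as a block, 131 genes passed by Nppa level (105 higher, 26 lower), 150 in the interaction, 1938 for treatment and 407 for the slope. Same-numbered samples correlated at -0.27, -0.062, -0.094 and 0.25, which gave no sign that the numbers pair the samples. With so few samples, which also differ in marker level, these values cannot exclude a pairing. No named gene that passed by Nppa level or for the slope changed sign under the alternatives compared. Those leave out, for the Nppa level, the fits with Nppa or the marker level as a number. Signs of the interaction and treatment genes were not compared. Of 342 fits of 38 named genes without a sample, 96 lost the call.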

Other observations

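Platelet genes were in no list and were picked after their values were seen. Of the 6 examined, 4 passed as higher in the samples of high Nppa, where 0.428% of all genes tested passed as higher. Pf4, which encodes platelet factor 4, was 1927 in vehicle 1, 2055 in oxaliplatin 2 and 2007 in oxaliplatin 4, against 886 to 1508 in the other 6 (log2 difference 0.92, SE 0.15, adjusted p = 0.0132). Gp9, a subunit of the receptor for von Willebrand factor, was 467, 245 and 287 against 47.3 to 144 (1.89, SE 0.31, adjusted p = 0.0134). Tubb1, the platelet tubulin, was 283, 67.8 and 84.5 against 9.56 to 67.6, and Clec1b, a platelet receptor, was 214, 130 and 85.3 against 39.4 to 61.5 (adjusted p = 0.0465 and 0.0276 in limma). Pf4 and Gp9 lost the call without any 1 of the 3 samples of high Nppa, Clec1b without vehicle 1, 2 or 3 or oxaliplatin 2, and Tubb1 in 8 of the 9 fits without a sample. All 4 lost it without vehicle 1, with an adjusted p of 0.108 for Pf4, 0.122 for Gp9, 0.266 for Tubb1 and 0.262 for Clec1b. Ppbp and Itga2b did not pass, at 642, 423 and 219 against 20.3 to 308, and 593, 92.5 and 189 against 61.9 to 261 (adjusted p = 0.203 and 0.167). Their log2 differences were 2.25 and 1.45. The limma slope on the marker level was 0.376 for Ppbp (adjusted p = 1.62e-05), 0.304 for Tubb1 (0.00289) and 0.125 for Pf4 (0.00838). Each of these slopes passed without any 1 sample. The slope of Gp9 (adjusted p = 0.0465) lost its call in 6 of the 9 fits without a sample, and those of Clec1b and Itga2b did not pass.

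Fos and Egr1, immediate early transcription factors, did not pass the interaction but showed the same low value in vehicle 1. Fos was 31.1 there and 924 to 1588 in the other vehicle samples, and 137 to 1466 in oxaliplatin samples. Egr1 was 141 in vehicle 1, 3005 to 3859 in the other vehicle samples and 86 to 2380 in oxaliplatin samples, with the lowest of those in oxaliplatin 1.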
